A study of Mus musculus with 8 samples.

Results

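The genes described here are 8 genes of cholesterol synthesis, Hmgcs1, Mvd, Idi1, Fdps, Sqle, Lss, Cyp51 and Dhcr7, followed through all 8 libraries of a spaceflight experiment on mouse embryonic stem cells (mESCs). They were chosen by name, and 7 of the 8 were matched to rows of the count table, which holds 50686 Ensembl gene identifiers. Hmgcs1 levels were not analysed here, because the name tables used pair it with no Ensembl identifier. The 8 libraries cross location (Space, a recoverable satellite in orbit, or Ground), genotype (wild-type Rad9+/+, R9wt, or Rad9-/-, R9del) and culture duration (1 day, D1, or 5 days, D5), with 1 library for each condition and so no replicate of any condition. All cells grew in the same kind of sealed payload and were fixed in RNAlater before RNA extraction. The space cultures alone went through launch, orbit and return. The D1 and D5 cultures sat over separate temperature controllers and were seeded with different cell numbers, and at D5 more R9del than R9wt cells were seeded, so these differences cannot be told apart from culture duration and, at D5, from genotype.

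Mammalian cells build cholesterol from acetyl-CoA through mevalonate, the isoprenoid diphosphates, squalene and lanosterol. Transcription of most enzymes of this route is driven by the sterol regulatory element binding protein encoded by Srebf2, which Scap escorts to the Golgi for cleavage when sterols are low and which Insig proteins hold in the endoplasmic reticulum when sterols are plentiful. Its isoprenoid intermediates also feed protein prenylation, dolichol and ubiquinone in dividing cells. Hmgcs1 encodes the cytosolic HMG-CoA synthase, an early step before mevalonate. Mvd, Idi1 and Fdps encode later steps of the isoprenoid part, mevalonate diphosphate decarboxylase, isopentenyl diphosphate isomerase and farnesyl diphosphate synthase. Sqle (squalene epoxidase) and Lss (lanosterol synthase) form the first sterol, Cyp51 removes a methyl group from lanosterol, and Dhcr7 encodes a reductase near the end of the route.

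The promoters of the members are shown first because this group of genes is usually described as sharing a promoter architecture, in which a sterol regulatory element works beside NF-Y boxes. In the RefSeq promoter table for GRCm38.p6, which spans 250 bases before to 50 bases after each gene start, 6 of the 8 members were matched, Hmgcs1, Mvd, Idi1, Lss, Cyp51 and Dhcr7, and Fdps and Sqle were not. The bases just upstream of the start are printed 5′ to 3′ along the gene, 150 for Hmgcs1 and 130 for the others. Capitals mark matches to the sterol regulatory element core TCACNCCAC and to the NF-Y box CCAAT, which reads ATTGG where it lies on the other strand.
Hmgcs1, chr13:119690201-119690350, plus strand: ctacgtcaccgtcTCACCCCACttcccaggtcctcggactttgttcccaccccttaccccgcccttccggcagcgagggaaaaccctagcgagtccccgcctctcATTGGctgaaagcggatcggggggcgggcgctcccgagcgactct
Mvd, chr8:122443423-122443552, minus strand: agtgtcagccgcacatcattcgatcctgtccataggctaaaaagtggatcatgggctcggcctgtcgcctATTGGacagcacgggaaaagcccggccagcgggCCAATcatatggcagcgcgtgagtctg
Idi1, chr13:8885476-8885605, plus strand: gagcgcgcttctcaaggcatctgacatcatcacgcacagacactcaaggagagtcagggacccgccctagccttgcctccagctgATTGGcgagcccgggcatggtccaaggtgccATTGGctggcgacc
Lss, chr10:76531475-76531604, plus strand: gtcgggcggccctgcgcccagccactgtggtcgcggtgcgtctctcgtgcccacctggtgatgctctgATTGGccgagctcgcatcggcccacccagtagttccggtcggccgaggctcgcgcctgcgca
Cyp51, chr5:4104698-4104827, minus strand: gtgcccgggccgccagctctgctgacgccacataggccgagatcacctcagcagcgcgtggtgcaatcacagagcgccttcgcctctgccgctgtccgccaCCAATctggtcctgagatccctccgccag
Dhcr7, chr7:143830084-143830213, plus strand: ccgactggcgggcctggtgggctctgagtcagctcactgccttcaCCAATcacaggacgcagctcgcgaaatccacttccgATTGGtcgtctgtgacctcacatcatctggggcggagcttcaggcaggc

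An NF-Y box was present in the window of 6 of 6 matched members, and 41.1% of the 27025 genes in the table hold one. Dhcr7 has 3 annotated starts in the table, and the start shown is the one whose window holds its NF-Y boxes. The GC box GGGCGG, searched on both strands, was also present in 6 of 6, against 38.2% of all genes. The sterol regulatory element core, searched on both strands, was found in the window of Hmgcs1 and of no other matched member, against 1.44% of all genes. No match of one motif overlapped a match of another in the members' windows. Among 11 matched genes of the rest of the synthesis pathway, 10 held an NF-Y box, 9 a GC box and 0 the sterol regulatory element core. A letter match describes the window and is not a measured binding site. Only the exact core TCACNCCAC was searched, so a window without a match may still hold a sterol regulatory element of another spelling.

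The library totals lay between 58238440 and 96416907 counts, the deepest being Ground_R9wt_D5, and an absent gene could still have been at up to 0.0335 to 0.0503 CPM (counts scaled by library size with edgeR's TMM factors), the worth of 3 counts, a bound for counting error only. Rad9, the deleted gene, lay between 70.3 and 93.4 CPM in the R9wt libraries and between 20.8 and 28.6 CPM in the R9del libraries. Of 10 embryonic stem cell markers, which summed to 4492.5 to 6135 CPM in space and 5476 to 8255 CPM on the ground, 1 rose in space (Esrrb, log2 change 1.20, adjusted p = 0.00635 by edgeR's quasi-likelihood test) and 1 fell (Sox2, -0.94, adjusted p = 0.0317). In space 7 of the 10 had negative estimates (median -0.41), and 4 had groups that did not overlap, against 14.4% of all genes. Of 8 fibroblast markers, which would mark feeder cells and summed to 26.4 to 61.2 CPM, Lum, Dcn and Postn were too low to test, 4 of the other 5 had positive estimates in space and 3 negative ones in R9del, and 0 passed. Of 8 extraembryonic endoderm markers, which summed to 7.21 to 25.8 CPM at D1 and 27.0 to 58.4 CPM at D5, 1 fell in space (Sox17, -3.88, adjusted p = 0.0187) and 5 had positive estimates there (median 0.32). In R9del 0 markers passed edgeR's quasi-likelihood test. The study's rule (a fold of at least 2 with an unadjusted p under 0.05) called Dppa5a (-1.03, stem cell list) and Pdgfrb (-1.30, fibroblast list) lower, against 7.39% of all genes. It called Sox7 (2.41, endoderm list) higher, against 6.37%. In R9del 7 of 10 stem cell markers had positive estimates (median 0.17) and 5 of 8 endoderm markers negative ones (median -0.30). In space the study's rule also called Pdgfrb higher (1.20) and Fgf4 lower (-1.05, stem cell list), where 2.91% of all genes were called higher and 7.97% lower. Between D5 and D1 it called 4 endoderm markers and 1 fibroblast marker higher, against 2.35% of genes. All 8 endoderm estimates were positive there (median 1.46), and 4 had groups that did not overlap, against 1.68% of genes higher. In that comparison 0 markers passed edgeR's quasi-likelihood test. When matched pairs were blocked, Pdgfrb passed in space and in R9del, and Sox7 passed in R9del, Sox7 by DESeq2's Wald test too. In space 4 stem cell markers passed with that block, Esrrb as higher and Sox2, Fgf4 and Utf1 (-0.82) as lower. The same 4 passed by edgeR's exact test and DESeq2's Wald test, against 8.79% and 12.2% of genes. Between D5 and D1, Afp (at most 1.24 CPM) passed as higher by both of these tests and Gata4 by DESeq2's alone. Over the 8 libraries the correlations of the 10 stem cell markers with the members' mean profile ranged from -0.48 (Tdgf1) to 0.96 (Dppa5a). Those of the fibroblast markers ranged from -0.78 (Col3a1, at most 0.235 CPM) to 0.81 (Thy1), and those of the endoderm markers from -0.85 (Sox7) to 0.35 (Sox17). Dppa5a, Tdgf1, Fgf4, Utf1, Col3a1, Thy1, Pdgfrb, Sox7, Afp and Gata4 were singled out after their values were seen. The part of these markers in the results was not tested.

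Among the 7 measured members, the level per kb of merged exons was highest for Fdps and lowest for Lss. Fdps averaged 253 ± 148 CPM per kb (SD, n = 8 libraries), Mvd 56.8 ± 34.9, Cyp51 52.7 ± 33.5 and Sqle 41.0 ± 21.2. Idi1 averaged 25.4 ± 11.3, Dhcr7 24.6 ± 8.35 and Lss 8.09 ± 3.18 CPM per kb. The ranges over the 8 libraries overlapped for each pair of neighbours in this order except Dhcr7 and Lss. The order depends on the length used, which joins all annotated exons of a gene. That length was 10.787 kb for Lss and from 1.233 kb (Fdps) to 5.546 kb (Sqle) for the other members. In CPM without this division Lss (45.7 to 147) overlapped with Idi1 (46.1 to 140) and Dhcr7 (59.5 to 141). In mm9 the 7 measured members lie on 7 different chromosomes. Mvd is at chr8:124957496-124967322 (minus strand), Idi1 at chr13:8884852-8891641 (plus), Fdps at chr3:88897514-88905881 (minus) and Sqle at chr15:59146632-59162747 (plus). Lss is at chr10:75994333-76019883 (plus), Cyp51 at chr5:4081145-4104746 (minus) and Dhcr7 at chr7:151009050-151034315 (plus).

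Sequence copies limit how the levels of Fdps and Idi1 can be read. At least 95% identity over at least 100 bases was found elsewhere in the genome for 96.4% of the exon length of Fdps, 86.6% of that of Idi1 and 4.0% of that of Sqle. Mvd, Lss, Cyp51 and Dhcr7 had no such copy. The annotated pseudogenes at these copies carried few reads, with 0.54 to 4.19 CPM for Gm3571 and at most 0.0447 CPM for Gm8163 (copies of Fdps), and 4.12 to 10.4 CPM for Gm13502 (a copy of Idi1). How the authors counted reads that match several places is not given in the sources used here, so the levels of Fdps and Idi1 are uncertain to that extent. Of the exon length of Lss, 3.53% overlaps a gene on the other strand.

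The wild-type ground culture at D5 held the highest level of 6 of the 7 members, and 6 of the 7 lowest levels were in R9del libraries. The exception was Dhcr7, whose highest level was in Space_R9del_D5 and whose lowest was in Space_R9wt_D5. From the lowest to the highest library the members spanned 2.37-fold (Dhcr7) to 5.58-fold (Cyp51). These are orders of single libraries, and in bulk RNA fewer cells of a type and less RNA per cell cannot be told apart.

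Mvd, the decarboxylase that yields isopentenyl diphosphate, was on the ground at 135 CPM (R9wt, D1), 238 CPM (R9wt, D5), 68.4 CPM (R9del, D1) and 91.6 CPM (R9del, D5). In space it was at 83.9 CPM (R9wt, D1), 56.0 CPM (R9wt, D5), 52.7 CPM (R9del, D1) and 73.8 CPM (R9del, D5). Both wild-type ground libraries stood above the other 6, and the space and ground groups overlapped through the R9del ground culture at D1. Idi1, the isomerase that follows, was on the ground at 100.1 CPM (R9wt, D1), 140.2 CPM (R9wt, D5), 65.6 CPM (R9del, D1) and 59.97 CPM (R9del, D5). Its space levels were 72.8 CPM (R9wt, D1), 49.99 CPM (R9wt, D5), 47.1 CPM (R9del, D1) and 46.1 CPM (R9del, D5). The order was again headed by the wild-type ground cultures, with 3 of the 4 space libraries at the bottom.

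Fdps, which condenses isoprenoid units into farnesyl diphosphate, was on the ground at 519 CPM (R9wt, D1), 661 CPM (R9wt, D5), 219 CPM (R9del, D1) and 261 CPM (R9del, D5). In space it was at 223 CPM (R9wt, D1), 209.8 CPM (R9wt, D5), 121 CPM (R9del, D1) and 281 CPM (R9del, D5). The 2 wild-type ground libraries stood apart from the other 6, which lay at or below 281 CPM. Sqle, a rate-limiting step of the sterol branch, was on the ground at 336 CPM (R9wt, D1), 456 CPM (R9wt, D5), 112 CPM (R9del, D1) and 152 CPM (R9del, D5). In space Sqle was at 186 CPM (R9wt, D1), 249.5 CPM (R9wt, D5), 120.2 CPM (R9del, D1) and 206 CPM (R9del, D5). Its space libraries lay inside the range of the ground libraries, and R9del overlapped with R9wt only in that Space_R9del_D5 lay above Space_R9wt_D1.

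Lss, which cyclises the epoxide of squalene to lanosterol, was on the ground at 104 CPM (R9wt, D1), 147 CPM (R9wt, D5), 45.7 CPM (R9del, D1) and 60.3 CPM (R9del, D5). In space it was at 122 CPM (R9wt, D1), 83.7 CPM (R9wt, D5), 73.0 CPM (R9del, D1) and 63.4 CPM (R9del, D5). All 4 R9del libraries lay below all 4 R9wt libraries. Cyp51, the cytochrome P450 acting on lanosterol, was on the ground at 247 CPM (R9wt, D1), 490.1 CPM (R9wt, D5), 87.8 CPM (R9del, D1) and 101 CPM (R9del, D5). In space it was at 373 CPM (R9wt, D1), 215 CPM (R9wt, D5), 97.0 CPM (R9del, D1) and 196 CPM (R9del, D5). As for Lss, no R9del library reached the lowest R9wt library, although Space_R9del_D5 came close.

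Dhcr7, which acts near the end of the route, followed another order. On the ground it was at 138 CPM (R9wt, D1), 92.0 CPM (R9wt, D5), 70.6 CPM (R9del, D1) and 77.3 CPM (R9del, D5). In space it was at 101 CPM (R9wt, D1), 59.5 CPM (R9wt, D5), 65.6 CPM (R9del, D1) and 141 CPM (R9del, D5). Both wild-type cultures were lower at D5 than at D1 and both R9del cultures higher, and the groups overlapped in all 3 comparisons.

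**Figure D1:**
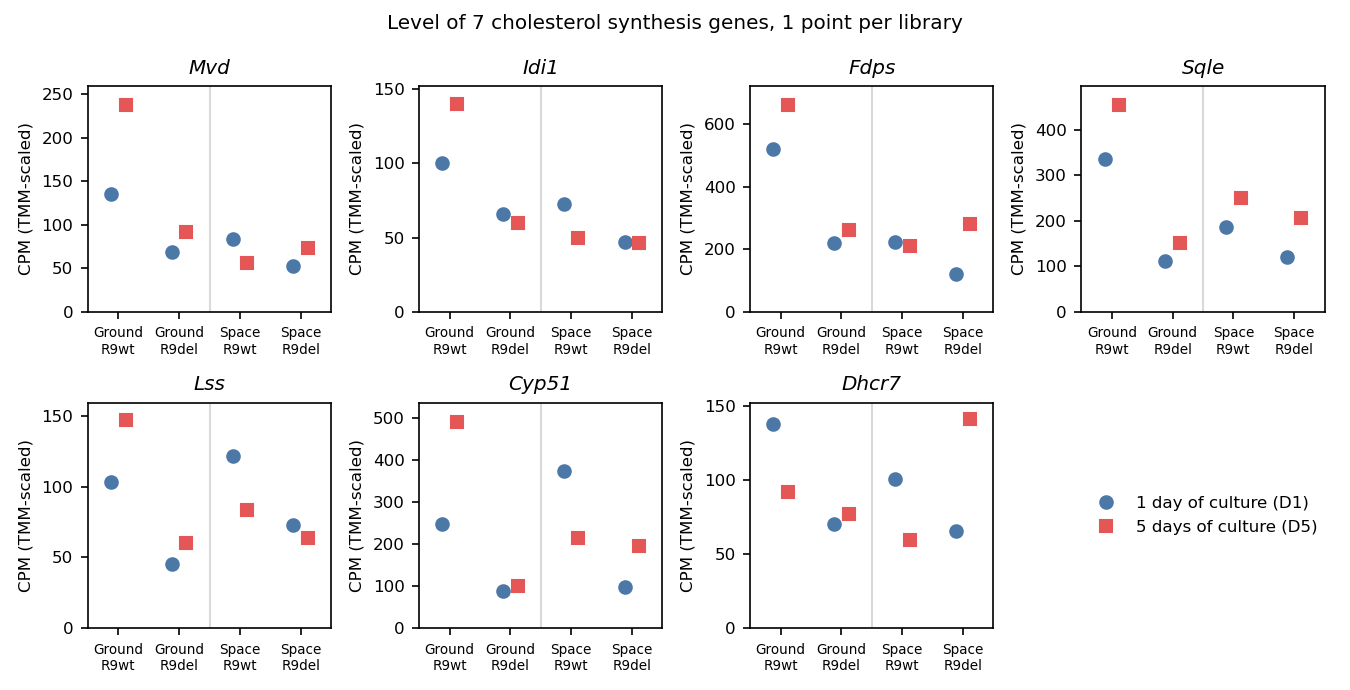
Level of the 7 measured cholesterol synthesis genes in CPM (vertical axis, TMM-scaled, from 0) in each of the 8 libraries, grouped by location and genotype, with circles for D1 and squares for D5. Ground_R9wt_D5 is highest for 6 genes, and Dhcr7 peaks in Space_R9del_D5 at 141 CPM.

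Whether spaceflight went with a different level of the members was asked by comparing the 4 space with the 4 ground libraries. The isoprenoid enzymes had lower averages in space and the estimates of Lss, Cyp51 and Dhcr7 were near 0, but no member passed the test. Mvd averaged 66.6 ± 14.8 CPM in space and 133 ± 75.1 CPM on the ground (SD, n = 4 each), a log2 change of -0.96 (standard error 0.36, adjusted p = 0.180 in edgeR's quasi-likelihood test), with the space library lower in 4 of 4 pairs matched on genotype and day. Idi1 averaged 54.002 ± 12.6 CPM in space and 91.4 ± 37.0 CPM on the ground, with an estimate of -0.72 (standard error 0.30, adjusted p = 0.222), lower in 4 of 4 pairs. Fdps averaged 209 ± 66.2 CPM in space and 415 ± 211 CPM on the ground, with an estimate of -0.95 (standard error 0.38, adjusted p = 0.209), lower in 3 of 4 pairs. The libraries of a group differ from each other in the other variables, so standard errors and p-values measure the spread between such libraries and not that of repeated cultures.

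The estimate for Sqle was -0.43 with a 95% interval from -1.36 to 0.51. Lss (-0.02, interval -0.82 to 0.79), Cyp51 (-0.03, interval -1.27 to 1.22) and Dhcr7 (0.00, interval -0.72 to 0.72) had intervals wide enough to hold differences in either direction. At an adjusted p under 0.05, 0 of 7 members were called by edgeR's quasi-likelihood test, where 6.32% of the 20473 genes tested were called, 5.13% lower and 1.19% higher. Unadjusted p was under 0.05 for 3 members (Mvd, Idi1 and Fdps), against 18.9% of all genes. By edgeR's exact test and DESeq2's Wald test 0 of 7 passed the adjusted threshold as well, against 8.79% and 12.2% of genes. The study's own rule, a fold of at least 2 with an unadjusted p under 0.05, called 0 of 7 members and 10.9% of all genes, 7.97% lower and 2.91% higher. No member had groups that did not overlap, against 14.4% of all genes, 9.37% lower and 5.07% higher.

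The median log2 change of the members was -0.43, with 6 of 7 estimates negative, where the median of all genes tested was 0.05 and 47.1% of them were negative. A single library weighed heavily in this comparison. Without Ground_R9wt_D5 the members' median was -0.06, the estimates of Mvd, Idi1 and Fdps were -0.55, -0.46 and -0.66, and 0 members had an unadjusted p under 0.05. That count was also 0 without Space_R9wt_D5 or Space_R9del_D1 and 1 without Ground_R9wt_D1. Other libraries weighed the other way, since the study's rule called 2 members without Ground_R9del_D1, Ground_R9del_D5, Space_R9wt_D1 or Space_R9del_D5, and the median was -0.69 without Ground_R9del_D1. Scaling by library size alone left 4 of 7 estimates negative, since Lss, Cyp51 and Dhcr7 lay close to 0.

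The matched pairs, single libraries without a test, describe how the differences were spread over the cultures. In wild-type cells at D5, all 7 members were lower in space, with log2 differences of -2.09 for Mvd, -1.66 for Fdps, -1.49 for Idi1 and -1.19 for Cyp51. These 4 of 7 members were past a fold of 2 downward, against 19.3% of 17597 genes that reached 1 CPM in some library, and 0 were past it upward, against 16.8%. In wild-type cells at D1, 1 member was past that fold downward (Fdps, -1.22), against 19.8% of genes, and 0 upward, against 14.1%, while Lss (0.24) and Cyp51 (0.59) were higher in space. In R9del cells, 0 of 7 members were past a fold of 2 at D1, where 12% of genes were lower and 9.09% higher, or at D5, where 15.1% were lower and 7.85% higher. In R9del cells at D1 the differences ran from -0.85 for Fdps to 0.67 for Lss, and at D5 from -0.38 for Idi1 to 0.95 for Cyp51.

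The Rad9 deletion was examined in the same way, with 4 R9del and 4 R9wt libraries. Every measured member had a lower estimate in R9del, and the sterol-forming enzymes Cyp51, Sqle and Lss had the largest differences. Cyp51 averaged 120.5 ± 50.5 CPM in R9del and 332 ± 126 CPM in R9wt (SD, n = 4 each), a log2 change of -1.44 (standard error 0.35, adjusted p = 0.0680 in edgeR's quasi-likelihood test), with the R9del library lower in 4 of 4 matched pairs. Lss averaged 60.6 ± 11.3 CPM in R9del and 114 ± 26.9 CPM in R9wt, with an estimate of -0.89 (standard error 0.24, adjusted p = 0.0854), lower in 4 of 4 pairs. Sqle averaged 148 ± 42.5 CPM in R9del and 307 ± 117 CPM in R9wt, with an estimate of -1.03 (standard error 0.31, adjusted p = 0.111), again lower in 4 of 4 pairs.

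Among the isoprenoid enzymes the estimates were -0.82 for Mvd (interval -1.71 to 0.08), -0.71 for Idi1 (interval -1.40 to -0.02) and -0.84 for Fdps (interval -1.76 to 0.07). Their adjusted p were 0.288, 0.236 and 0.283 in edgeR's test. Over the alternatives tried Mvd ran from -1.06 to -0.36, Idi1 from -0.90 to -0.45 and Fdps from -1.07 to -0.53. Idi1 was lower in 4 of 4 pairs and the other two in 3 of 4, the exception being the space cultures at D5. Dhcr7 had an estimate of -0.12 (interval -0.85 to 0.62).

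At an adjusted p under 0.05, 0 of 7 members were called by edgeR's quasi-likelihood test, against 2.04% of all genes, 0.85% lower and 1.19% higher. Unadjusted p was under 0.05 for 4 members (Idi1, Sqle, Lss and Cyp51), against 20.2% of all genes. The call depended on the tool, and the other tools called more of all genes too. The exact test of edgeR called 2 members (Lss and Cyp51), against 7.12% of genes, and DESeq2's Wald test called 3 (Sqle, Lss and Cyp51), against 10% of genes. With the matched pairs as a block, Lss (-0.88, adjusted p = 0.0373) and Cyp51 (-1.46, adjusted p = 0.0399) passed in edgeR's quasi-likelihood test, against 8.46% of genes. Over the alternatives tried the adjusted p of Cyp51 ran from 0.00625 to 0.192 and that of Lss from 0.0225 to 0.231. The study's rule called Sqle and Cyp51, 2 of 7 members, where 13.8% of all genes were called, 7.39% lower and 6.37% higher. That count was 5 without Space_R9wt_D5, 3 without Space_R9wt_D1 and 1 without Ground_R9wt_D5 or Ground_R9del_D1. The groups did not overlap for Lss and Cyp51, again 2 of 7, against 14.3% of genes, 7.19% lower and 7.1% higher.

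The members' median was -0.84, where the median of all genes tested was -0.05 and 52.8% were negative. All 7 estimates were negative under each scaling, filter and test tried with all libraries, and without each library in turn except Ground_R9wt_D1, where Dhcr7 was at 0.06. Without Ground_R9wt_D5 the median was -0.53, and without Space_R9wt_D5 it was -1.05.

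**Figure D2:**
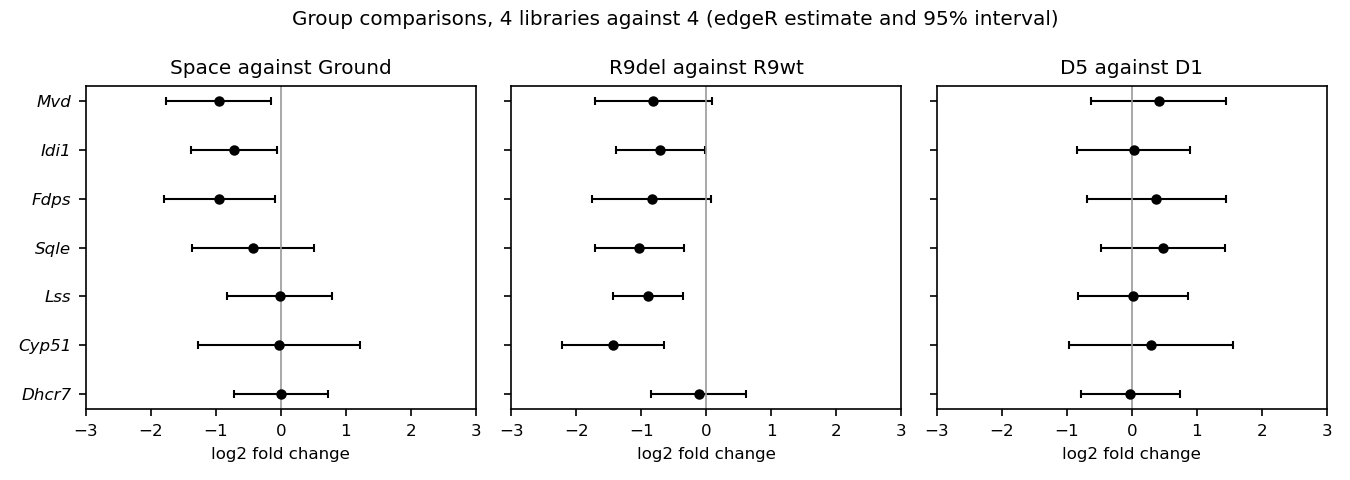
Log2 fold change (horizontal axis) of each measured member in the 3 group comparisons of 4 libraries against 4, with edgeR's estimate as a point and its 95% interval as a bar. In R9del against R9wt all points lie left of 0, and the interval of Cyp51 runs from -2.22 to -0.65.

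On the ground the R9del cultures were lower than the wild-type for every member at both days. At D1 the log2 differences ran from -1.58 for Sqle to -0.61 for Idi1, and 4 of 7 members (Fdps, Sqle, Lss and Cyp51) were past a fold of 2 downward, against 11.8% of genes lower and 10.9% higher. At D5 they ran from -2.27 for Cyp51 to -0.25 for Dhcr7, and 6 of 7 were past a fold of 2 downward, against 15% of genes lower and 16.5% higher. In space at D1 all 7 were lower in R9del, with 1 of 7 past a fold of 2 (Cyp51, -1.94), against 15.9% lower and 18.3% higher. In space at D5 the members lay from -0.40 for Lss to 1.24 for Dhcr7, with 0 of 7 past a fold of 2 downward, against 13.5%, and 1 upward (Dhcr7), against 11.8%.

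**Figure D3:**
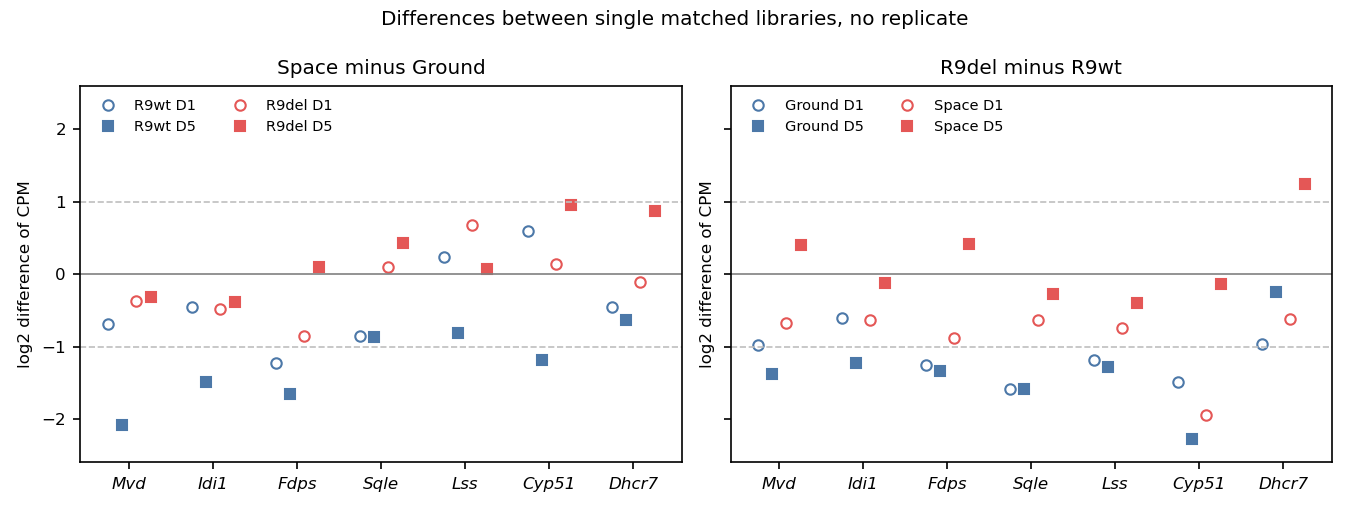
Log2 difference of CPM (vertical axis) between single libraries that differ only in location (left) or only in genotype (right), for each measured member, with open circles for D1, squares for D5 and dashed lines at a fold of 2. In wild-type cells at D5 the space-ground differences reach -2.09 for Mvd, and in space at D5 the genotype differences lie between -0.40 and 1.24.

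Whether the space-ground difference depended on genotype was tested with an interaction term. The interaction was positive for 7 of 7 members, meaning a space-ground difference that was higher in R9del than in R9wt, with a median of 0.98 on the log2 scale, and 50.1% of the 22561 genes tested had a positive estimate with a median of 0.00. Among the members the largest were Sqle (1.11, standard error 0.33, unadjusted p = 0.0103), Fdps (1.07, standard error 0.47, unadjusted p = 0.0561), Dhcr7 (0.99) and Mvd (0.98) in edgeR's quasi-likelihood test. Adjusted over all genes, 0 passed in that test (0%), with 704 genes (3.12%) at an unadjusted p under 0.05, of which Sqle was 1. DESeq2's Wald test passed 34 genes, none of them a member. Of the 12 other pathway enzymes, 9 had positive estimates and 2 an unadjusted p under 0.05 in edgeR's test. Acat2 had the largest of these (1.35, unadjusted p = 0.00377 in edgeR's quasi-likelihood test), above every member. A positive sign was not particular to sterol synthesis. In the same test every fatty acid synthesis gene but Elovl6 (-0.04) and every stem cell marker but Sox2 (-0.05) had a positive estimate. Among the sterol sensing genes the signs were mixed. Fasn (1.70, unadjusted p = 0.00823) lay above Acat2, and was singled out after its value was seen. The 7 interactions of the members share the same 8 libraries and are not independent of each other. For location and culture duration, 3 of 7 estimates were positive with a median of -0.37, and 0 members had an unadjusted p under 0.05, against 6.59% of genes. In that interaction 0.00443% of genes (1 gene) passed the adjusted threshold in edgeR's test and 0 members did.

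Between D5 and D1 no member differed by more than the spread within the groups. The log2 changes were 0.42 for Mvd, 0.03 for Idi1, 0.37 for Fdps, 0.49 for Sqle, 0.02 for Lss, 0.30 for Cyp51 and -0.02 for Dhcr7, and each 95% interval held 0. By edgeR's quasi-likelihood test 0 of 7 members passed, and 0 had an unadjusted p under 0.05, against 4.32% of genes, and edgeR's exact test and DESeq2's Wald test passed 0 as well. Across all genes the quasi-likelihood test passed 0% (0 of 20473, with 885 at an unadjusted p under 0.05). The study's rule called 0 members and 3.44% of genes, 2.35% higher and 1.08% lower, and the groups overlapped for every member, where they did not for 2.85% of genes, 1.68% higher and 1.17% lower. Sqle alone was higher at D5 in 4 of 4 matched pairs, from 0.42 to 0.78 on the log2 scale. With the matched pairs as a block Sqle was the 1 member at an unadjusted p under 0.05, against 9.01% of genes, and 0 passed after adjustment. The sign of the members' median turned with 1 library, from 0.30 to -0.21 without Ground_R9wt_D5.

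In R9del cells in space, 3 of 7 members were past a fold of 2 upward from D1 to D5, Fdps (1.22), Dhcr7 (1.10) and Cyp51 (1.01), against 6.31% of genes higher and 8.09% lower. Cyp51 was at the boundary, and with library size alone the count was 2. In the same libraries the endoderm markers summed to 25.8 CPM at D1 and 58.4 CPM at D5. The stem cell markers summed to 5221 and 6135 CPM and the fibroblast markers to 34.0 and 51.9 CPM. The part of these markers in the rise was not tested. In the other 3 comparisons of D5 with D1, 0 of 7 members were past a fold of 2. There 15% of genes were higher and 14.1% lower in wild-type cells on the ground, 7.04% and 5.69% in R9del cells on the ground, and 14.9% and 12.7% in wild-type cells in space. In those wild-type space cells, 6 of 7 members were lower at D5, from -0.09 for Fdps to -0.79 for Cyp51, and Sqle was higher by 0.42.

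The members divided by which variable took most of the variation between the 8 libraries. Location took the largest share for Mvd (41.5%), Idi1 (43.9%) and Fdps (39.1%), where its median over all genes tested was 14.9%. Genotype took the largest share for Sqle (59.7%), Lss (73.1%) and Cyp51 (71.3%), against a median of 19.0%. For Dhcr7 the interaction of genotype and day took 53.4%, the largest share. These are shares of sums of squares with no replicate error to set against them.

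Over the 8 libraries the 21 pairs of members had correlations of log2 CPM from 0.29 to 0.94, with a median of 0.66. Mvd and Idi1 (0.94), Mvd and Fdps (0.93) and Lss and Cyp51 (0.91) were the closest pairs, and Lss and Dhcr7 (0.29) the least alike. The points share libraries and depth, so these values are descriptions. The 5 genes outside the lists with the profile most like the mean standardised profile of the members, among 7807 ranked, were Gtf2h5 (r = 0.99), 1700037H04Rik (0.97), Rpl8 (0.97), Sdhc (0.97) and Oxct1 (0.96). Within the pathway, Fdft1 (0.98) and Msmo1 (0.96) were as close, and Pmvk (0.895) and Insig1 (0.84) were less so. Ggps1 (0.24), Lbr (0.32), Mvk (0.46) and Hsd17b7 (0.55) were the listed enzymes least like the profile. The 9 sensing genes ranged from -0.81 (Mbtps1) to 0.84 (Insig1), with Srebf2 at 0.72. Over the 7862 genes at this level, list genes included, the median was -0.01 and the 95th percentile 0.79.

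The 12 other enzymes of the pathway listed here all passed the filter on low counts. Among them Ggps1 belongs to an isoprenoid branch and is not a step towards cholesterol. In R9del against R9wt, 12 of 12 had negative estimates with a median of -0.53, and 0 passed an adjusted p under 0.05 by edgeR's quasi-likelihood test, with 6 at an unadjusted p under 0.05, against 20.2% of all genes. The exact test, DESeq2's Wald test and the block on matched pairs each passed 1, Msmo1, against 7.12%, 10% and 8.46% of genes. Msmo1, the sterol methyl oxidase after Cyp51, averaged 91.1 ± 27.6 CPM in R9del and 228 ± 91.0 CPM in R9wt (log2 change -1.30, adjusted p = 0.0697) and was called by the study's rule. Fdft1, squalene synthase (-0.77, adjusted p = 0.156), had groups that did not overlap, as Msmo1 did, 2 of 12 against 14.3% of all genes. Pmvk (-0.997), Hsd17b7 (-0.73), Sc5d (-0.70), Lbr (-0.58), Tm7sf2 (-0.48), Nsdhl (-0.47) and Ebp (-0.44) had negative estimates as well. Those of Acat2 (-0.24), Mvk (-0.14) and Ggps1 (-0.08) were small.

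In space against ground the pathway was mixed, with 7 of 12 negative estimates and a median of -0.14. By edgeR's quasi-likelihood test 0 of 12 passed and 0 had an unadjusted p under 0.05, as in the exact test, DESeq2's Wald test and the block on matched pairs. The negative estimates were those of Pmvk (-0.74), Msmo1 (-0.56), Fdft1 (-0.44), Acat2 (-0.41), Mvk (-0.39), Nsdhl (-0.23) and Tm7sf2 (-0.04). That of Ggps1 (0.05) was near 0 as well, and Sc5d (0.11), Ebp (0.13), Hsd17b7 (0.30) and Lbr (0.40) had positive estimates. Between D5 and D1, 9 of 12 estimates were positive with a median of 0.31, and in the quasi-likelihood, exact and DESeq2 tests 0 passed and 0 had an unadjusted p under 0.05. With the matched pairs as a block 4 of 12 had an unadjusted p under 0.05, against 9.01% of genes, and 0 passed after adjustment.

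**Figure D4:**
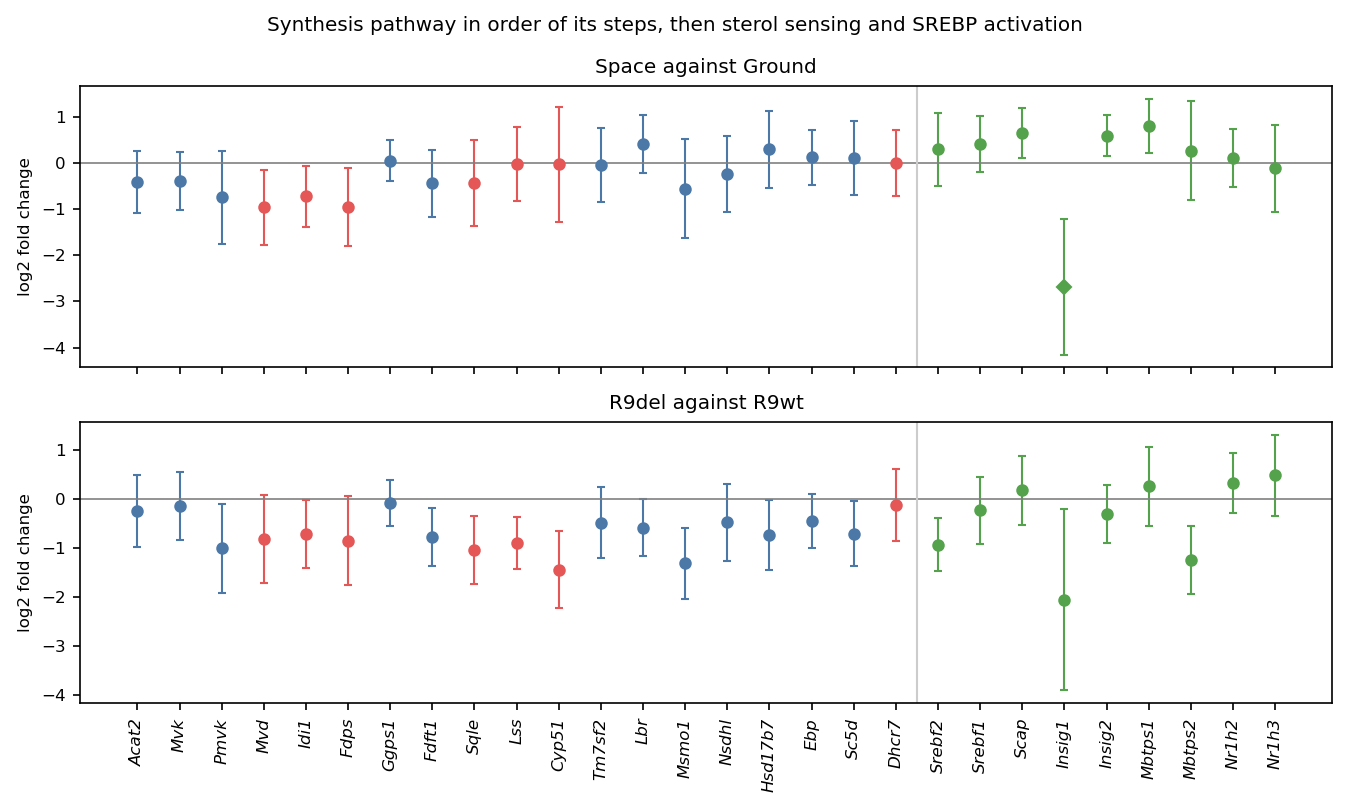
Log2 fold change (vertical axis, edgeR estimate with 95% interval) of the synthesis genes in the order of their steps and, right of the grey line, of the sterol sensing genes, in space against ground (top) and R9del against R9wt (bottom). Ggps1, on an isoprenoid branch, is placed after Fdps. Red marks the measured members, blue the other enzymes, green the sensing genes and diamonds an adjusted p under 0.05, which Insig1 (-2.68) reaches in space.

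Of the 9 genes that sense sterols or activate the pathway, Insig1, the sterol-regulated retention factor and itself a target of the pathway's transcription factor, had the largest difference. It was on the ground at 185 CPM (R9wt, D1), 404 CPM (R9wt, D5), 55.2 CPM (R9del, D1) and 65.9 CPM (R9del, D5), and in space at 48.4, 23.2, 13.1 and 22.1 CPM in the same order. The groups did not overlap, and Insig1 fell in space by 2.68 on the log2 scale (standard error 0.66, adjusted p = 0.0397 by edgeR's quasi-likelihood test). It missed the threshold without Ground_R9wt_D1, Ground_R9wt_D5, Space_R9wt_D5, Space_R9del_D1 or Space_R9del_D5, with an adjusted p of at most 0.118, and its log2 change was -1.91 without Ground_R9wt_D5. Insig1 also had a negative estimate in R9del (-2.05, adjusted p = 0.205), which passed with the matched pairs as a block.

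Insig1 has a GC-rich transcript, with 74% GC in its most GC-rich 200-base window. That places it in bin 4 of 5 bins, of 2769 to 3460 genes each, by that measure among tested genes with a matched transcript. In bins 4 and 5, 9.52% and 16.8% of genes passed as lower in space, against 0.607% to 1.48% in bins 1 to 3. The members lie in bins 1 to 4, with Cyp51 alone in bin 4. The part of GC content in the results was not tested.

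Srebf2, which encodes the transcription factor of the pathway, was lower in every R9del library than in every R9wt library, at 220 ± 46.1 against 421 ± 86.9 CPM (SD, n = 4 each). Its log2 change was -0.92 (standard error 0.24, adjusted p = 0.0773 in edgeR's test). In space against ground its estimate was 0.30 (adjusted p = 0.732). Srebf1 (0.42), Scap (0.65), Insig2 (0.59) and the protease gene Mbtps1 (0.80) had positive estimates in space that did not pass. The groups did not overlap for Insig2 and Mbtps1, against 14.4% of all genes, 5.07% higher and 9.37% lower. In R9del the estimates were -0.22 for Srebf1, 0.18 for Scap, -0.30 for Insig2 and 0.26 for Mbtps1. Mbtps2, the other protease of the cleavage, had a log2 change of -1.24 in R9del (adjusted p = 0.0701) and was called by the study's rule. Of the 9 genes 0 passed in R9del by the quasi-likelihood test, with 3 at an unadjusted p under 0.05, against 20.2% of all genes. Srebf2 and Mbtps2 passed by the exact test, by DESeq2's Wald test and with the block, against 7.12%, 10% and 8.46% of genes. DESeq2's Wald test also passed Insig2 in space, against 12.2% of genes. Mbtps1 and Mbtps2 were singled out after their values were seen.

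Among 10 genes of sterol uptake, transport and storage, Scarb1, the receptor for high-density lipoprotein, fell in R9del. It was on the ground at 154 CPM (R9wt, D1), 279 CPM (R9wt, D5), 57.0 CPM (R9del, D1) and 92.0 CPM (R9del, D5), and in space at 293, 189, 88.1 and 113 CPM in the same order. The highest R9del value was under the lowest R9wt value, with a log2 change of -1.37 (standard error 0.29, adjusted p = 0.0491 by edgeR's quasi-likelihood test). That call is at the threshold. It was lost with DESeq2's size factors in the same test (adjusted p = 0.0503), with library size alone, with no filter and without any 1 library other than Ground_R9wt_D1 (adjusted p at most 0.144). Scarb1 and Soat1 passed in R9del by the exact test and by DESeq2's Wald test, against 7.12% and 10% of all genes. With the matched pairs as a block 3 of the 10 passed in R9del, Scarb1, Soat1 and Stard4, against 8.46% of all genes. The study's rule called 3 lower in R9del, Scarb1, Soat1 (-1.57) and Abcg1 (-1.55), against 7.39% of genes. Soat1 and Abcg1 were singled out after their values were seen. Over the list, 8 of 10 estimates were negative in R9del with a median of -0.67. Stard4, a sterol transfer protein, had an estimate of -0.94 (adjusted p = 0.127) and Mylip of -0.53, and that of the efflux pump Abca1 was 0.19. In space 0 of 10 passed the adjusted threshold in edgeR's quasi-likelihood test, with 1 at an unadjusted p under 0.05, against 18.9% of all genes. The exact test and DESeq2's Wald test passed 0, against 8.79% and 12.2% of genes, and the block passed 1 (Soat1, which stores cholesterol as esters). The study's rule also called Soat1 higher in space (1.42), against 2.91% of genes. Of the estimates in space 8 of 10 were positive, with a median of 0.28. Stard4 (0.01), Mylip (-0.08) and Abca1 (0.35) did not pass.

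Fatty acid synthesis genes, which answer to related factors, were counted for comparison. Of 11 genes, 7 had negative estimates in R9del with a median of -0.42 and 4 had an unadjusted p under 0.05, against 20.2% of all genes. In space 5 had negative estimates, with a median of 0.12, and 2 had an unadjusted p under 0.05, against 18.9% of all genes. After adjustment 0 of 11 passed in either comparison by edgeR's quasi-likelihood test. The desaturase Scd1 passed in R9del by the exact test and DESeq2's Wald test, against 7.12% and 10% of genes. With the block Scd1 passed together with Me1, against 8.46%. Acaca passed in space by DESeq2's Wald test, against 12.2%.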

How the data were processed

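RNA was extracted with TRIzol and sequenced as paired-end mRNA libraries. The authors deposited raw counts per gene, whole numbers that were not normalized, in 1 table of the 8 libraries. The submitters' processing notes name FastQC, TopHat2 2.0.9, edgeR and the mm9 build. The counting program, its annotation and its use of strand are not given in the sources used here. Ensembl identifiers were paired with symbols through reference name tables, which gave 32722 of 50686 a symbol.

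Counts were analysed in R 4.3.3 with edgeR 4.0.16 (TMM scaling, filterByExpr with a minimum count of 10, quasi-likelihood test, Benjamini-Hochberg adjustment over all 20473 genes tested, threshold 0.05), 4 libraries against 4. CPM are counts scaled to library size. DESeq2 1.42.0 was an alternative, beside other scalings, no filter, edgeR's exact test, the other variables as covariates, matched pairs as a block and each library left out. The interactions were fitted with edgeR on 22561 genes. Comparisons of single libraries used log2 CPM with a prior count of 2, genes with at least 1 CPM in 1 library and no test. Libraries that share the other conditions by their labels deviated together from their group means (r from 0.284 to 0.610), so these pairs formed the block. Copies were searched in mm9 with BLAST 2.17.0, and motifs with Python 3.11.15. The scripts were tested on simulated data with known changes.

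Named genes were the members, every other listed enzyme of the pathway, the main regulators and uptake genes (Srebf1, Srebf2, Scap, Insig1, Insig2, Stard4, Mylip, Abca1), genes of any list that passed the adjusted threshold, and the 5 genes most like the members. Some genes of the pathway and uptake lists are not reported here and are left out of the lists' counts. The members and the lists were chosen with earlier results of these data known.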

Additional observations from a re-analysis of the deposited data

Results flagged for a closer look

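The space-ground difference of Sqle had opposite signs in the 2 genotypes in every matched pair. It averaged -0.86 on the log2 scale in R9wt and 0.26 in R9del, a gap of -1.13. The difference was tested as the interaction of location and genotype in edgeR's quasi-likelihood test, where the unadjusted p was 0.0103 and the adjusted p was 1.

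The D5-D1 difference of Lss was positive in both ground pairs and negative in both space pairs, with averages of 0.45 and -0.37 on the log2 scale and a gap of 0.823. Its interaction of location and culture duration did not pass in edgeR's test. The D5-D1 difference of Dhcr7 was negative in both R9wt pairs and positive in both R9del pairs, with averages of -0.67 and 0.62 and a gap of -1.29, and that difference was not tested.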

How the results depend on the processing

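Each group comparison was repeated with 15 alternatives. In space against ground, the estimates nearest 0 changed sign. Lss was at 0.0114 and Cyp51 at 0.00281 with DESeq2's size factors, at 0.0114 and 0.00286 by DESeq2's Wald test, at 0.0401 and 0.0384 with library size alone, at 0.0828 and 0.22 with the other variables as covariates, and at 0.0822 and 0.17 when pairs were blocked. Dhcr7 was at -0.0407 with no filter and -0.0501 with the block. Genes higher in space at an adjusted p under 0.05 numbered 243, and 104 with no filter, 457 by the exact test, 805 by DESeq2, 638 with covariates and 443 with the block. With no filter the study's rule called 949 genes higher and 2043 lower, and 1 member, which was lower.

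In R9del against R9wt, the adjusted threshold passed 243 genes higher and 174 lower, and 94 and 63 with no filter, 751 and 706 by the exact test, 978 and 1067 by DESeq2, 714 and 761 with covariates, and 910 and 823 with the block. Members passing numbered 2 by the exact test, 3 by DESeq2, 2 with covariates (Sqle and Cyp51) and 2 with the block (Lss and Cyp51). The study's rule called 1 member with library size alone and 1 with covariates, and 2161 genes higher with no filter. The block on matched pairs changed no other call of a member.

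Between D5 and D1, the exact test passed 32 genes higher and 3 lower and DESeq2 79 and 12. Genes lower by the study's rule numbered 571 with no filter, 352 by DESeq2, 466 with covariates and 433 with the block, against 222. Idi1 was at -0.0410 with covariates and -0.0682 with the block, so that 2 members had negative estimates with the block, and Dhcr7 was at 0.00145 with covariates. For the interactions DESeq2's Wald test passed 34 and 85 genes. In each case the cause was not tested.

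Leaving out each library in turn moved several values. In space against ground the members' median ran from -0.69 to -0.06, members with negative estimates from 4 to 7, members called by the study's rule from 0 to 2 and genes passing as higher from 50 to 184. There Lss ran from -0.27 to 0.31, Cyp51 from -0.45 to 0.62, Dhcr7 from -0.29 to 0.21 and Insig1 from -3.18 to -1.91. In R9del, Dhcr7 ran from -0.44 to 0.0621 (without Ground_R9wt_D1), Scarb1 from -1.54 to -1.22, members called by the study's rule from 1 to 5, and genes passing from 0 to 247 higher and 0 to 288 lower, with 0 of each without Ground_R9wt_D5. Between D5 and D1 the median ran from -0.21 to 0.50, members with negative estimates from 0 to 6 and genes higher by the study's rule from 319 to 591. There Mvd ran from -0.21 to 0.74, Idi1 from -0.46 to 0.25, Fdps from -0.11 to 0.90, Lss from -0.32 to 0.26, Cyp51 from -0.25 to 0.80 and Dhcr7 from -0.32 to 0.21. Over all the alternatives between D5 and D1, Sqle ran from 0.098 to 0.915. With 1 library per condition, no value here has the error of repeated cultures.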
